A study of Caenorhabditis elegans with 2 samples.

Results

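The MuvB and DREAM complex genes of Caenorhabditis elegans, 8 genes among 19973 protein-coding genes on the nuclear chromosomes, were examined in ChIP-seq region lists for ZTF-11. They are lin-9, lin-37, lin-52, lin-53 and lin-54, which encode the MuvB core, and lin-35, efl-1 and dpl-1, which encode the pocket protein and the E2F-DP pair of DREAM. The genes were chosen by name, because MuvB is a reported corepressor partner of ZTF-11, and with earlier results of these lists known. Regions were selected on their deposited summits, which had to lie in the start window of the gene, 1000 bp before to 500 bp after any annotated transcript start, and were ranked by their deposited signal. The same values are described below, so no test was made on them.

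ZTF-11 belongs to the Myt1 family of zinc-finger factors. Chromatin came from whole L1 larvae of both sexes of the strain OP236 (unc-119(ed3) III; wgIs236), in which a stable transgene expresses ZTF-11 fused to GFP-FLAG at the C-terminus, and age was given as unknown. The labels name ztf-11 under antibody and do not say whether the tag or the protein was recognised. There were 2 biological replicates in 1 group, with no untagged or untreated group here, so no contrast between conditions was possible. All cells of the larva were in the preparation, and a region in a few cells cannot be told apart from a weak one in many.

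DREAM is a repressor of cell cycle genes. An E2F-DP pair binds promoters, the pocket protein LIN-35, the worm relative of the retinoblastoma protein, joins it to MuvB, and LIN-54 within MuvB binds DNA itself at a short element called CHR. In worms these genes are known as class B synthetic multivulva genes, and DREAM also keeps germline genes off in somatic tissue. The lists describe where tagged ZTF-11 was recovered at the genes for these proteins, and not where the complex itself lay.

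The pooled list and the replicate 2 list each held 30000 nuclear regions, and the replicate 1 list held 29977 after its 23 mitochondrial regions were left out. The pooled list rests on both replicates together, so it is no independent repeat. Signal ran from 12.3 to 127 in the pooled list with a median of 16.1, and the medians were 9.89 and 9.18 in the replicate lists. The signal at rank 1000 was 27.4, 17.6 and 16.3 in the pooled, replicate 1 and replicate 2 lists. Read depth was unknown, and no scaling between lists was stated, so signal was compared only within a list.

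Listed regions were more common at the MuvB and DREAM genes than at all protein-coding genes in the pooled and replicate 1 lists. In replicate 2 they were less common. None of the regions in the start windows of these genes was in the authors' thresholded list of 88 peaks, the consensus. In the pooled list 6 of the 8 genes had a region in the start window, against 45.2% of all protein-coding genes. In replicate 1 the count was 7 of 8, against 44.8%, and in replicate 2 it was 3 of 8, against 45.7%. A listed region is thus an ordinary property of a worm promoter in these lists of 30000 regions, which hold background by design.

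At the top of the lists, 2 of the 8 genes had a region in each list, and lin-9 was one of them every time. Among the 1000 regions of highest pooled signal, lin-9 and lin-54 had one each, 2 of 8 genes against 2.90% of all genes. In replicate 1 the same 2 genes were among the 1000 highest, against 2.48%, and in replicate 2 lin-9 and efl-1 were, against 2.73%. The lin-54 region counted here lay at the start of rpl-12, a ribosomal protein gene, closer to rpl-12 than to lin-54. The consensus held 0 of 8, and 0.411% of all genes.

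A region was listed in every one of the 3 lists for lin-9, lin-54 and efl-1, or 3 of 8 genes against 22.0% of all genes. The same 3 genes had replicate summits within 200 bp of each other, against 13.4% of all genes. Of the other genes, lin-37, lin-53 and lin-35 were in the pooled and replicate 1 lists, lin-52 was in the replicate 1 list alone, and dpl-1 was in none. Over all protein-coding genes, 32.5% were in none of the 3 lists.

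**Figure D1:**
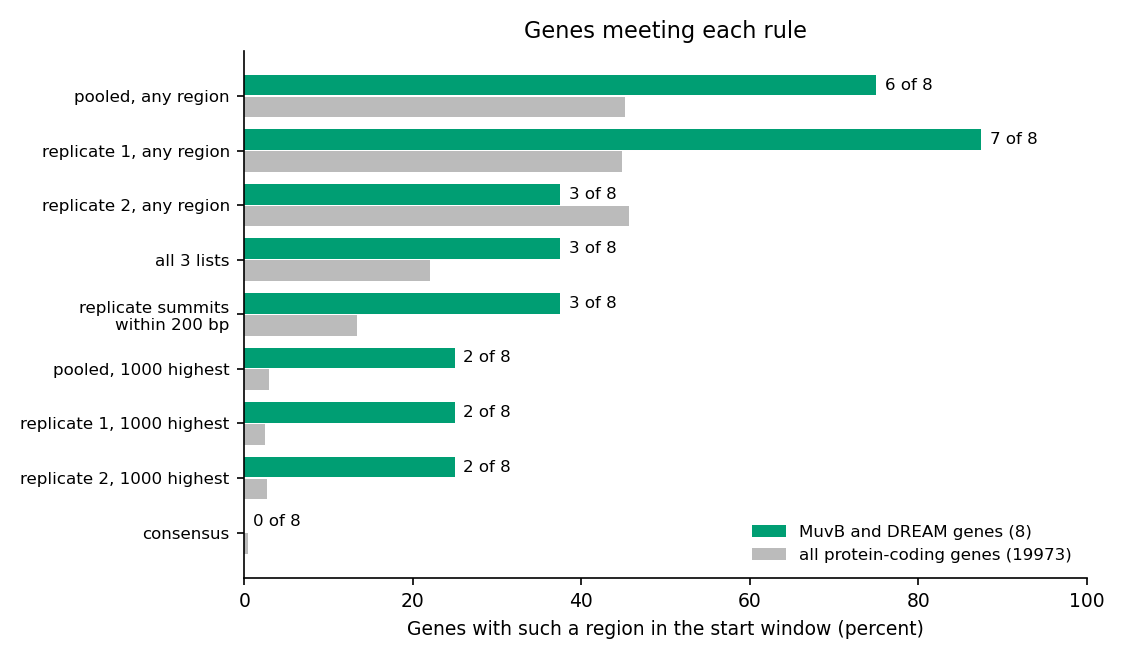
Bars give the percent of genes that met each rule on the start window, for the 8 MuvB and DREAM genes (green, with the count) and all 19973 protein-coding genes (grey). The green bars stand at 25% for the 1000 highest regions of each list, where the grey bars are at 2.48% to 2.90%, and in replicate 2 the bar for any region, 3 of 8, is below the grey one of 45.7%. The lin-54 region, counted among the 1000 highest in the pooled and replicate 1 lists, lies at the start of rpl-12.

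**Figure D2:**
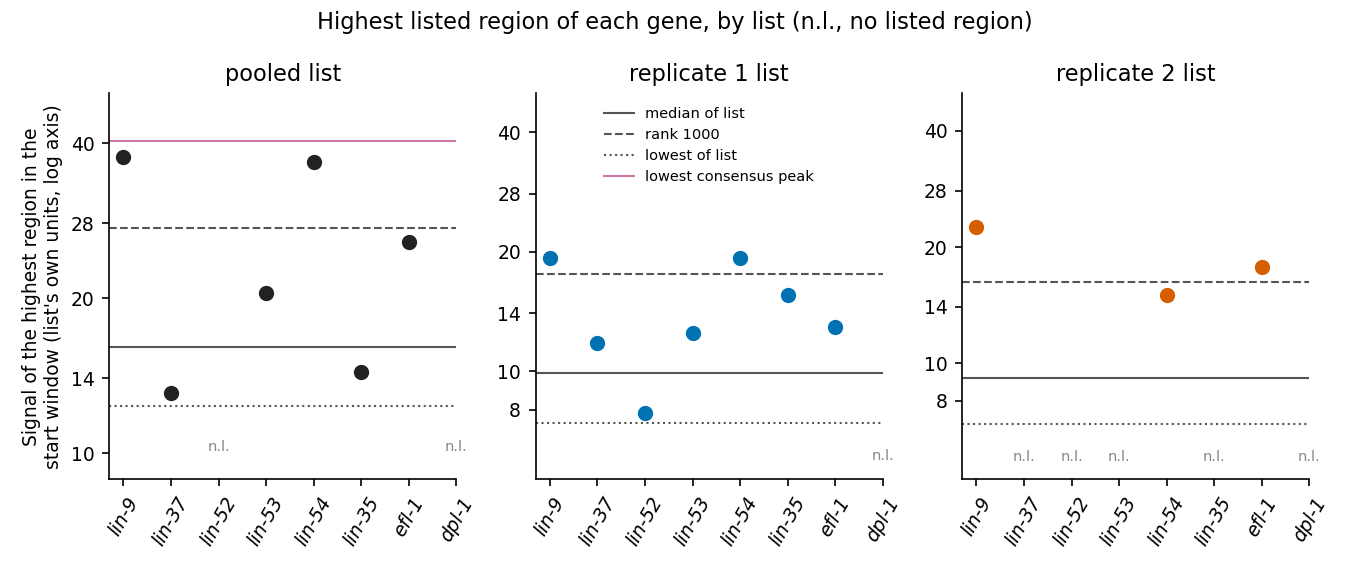
Signal of the highest region in the start window of each gene, 1 panel per list, on a log axis in each list's own units. The lines mark the median, the signal at rank 1000 and the lowest signal of the list, and in the pooled panel the lowest consensus peak (40.5). In the pooled panel lin-9 and lin-54 lie between the rank 1000 line and the consensus line, and 5 genes are marked as not listed (n.l.) in replicate 2.

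The lin-9 promoter had the region of highest pooled signal among the MuvB and DREAM genes. LIN-9 is a core subunit of MuvB. The gene (WBGene00002998) lies at chrIII:8900237-8904131 on the minus strand, with 1 annotated start. Its highest region, at chrIII:8904153-8904502 on ce11, was intergenic and had a signal of 37.6 in the pooled list (rank 128), 19.2 in replicate 1 (rank 557) and 22.5 in replicate 2 (rank 100). All 3 values were above the 1000th region of their list. The pooled signal was below that of the weakest consensus peak, 40.5, and 39 regions lay between.

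The lin-9 summits of the replicates were not at one place. They lay 197 bp upstream of the start in the pooled list, 230 bp in replicate 1 and 93 bp in replicate 2. The replicate summits were thus 137 bp apart, and their regions overlapped by 213 bp. A lower region, with pooled signal 23.6 (rank 2619), had its summit 779 bp upstream of lin-9 and 705 bp upstream of unc-32, a gene for a vacuolar ATPase subunit that runs the other way. Its signal was 8.28 in replicate 1 (rank 23866) and 13.0 in replicate 2 (rank 3684), and there the replicate summits were 45 bp apart. So lin-9 had a high region of its own, and a region shared with unc-32 whose rank differed widely between the replicates.

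The sequence around the lin-9 summit is shown because it holds all 3 kinds of word searched, and those of lin-54 and efl-1 because the replicates agreed in position there. Capitals mark AAGTT (the word known for Myt1 family factors), the CHR words TTTGAA and TTCGAA, and the E2F words TTTCCCGC, TTTGGCGC and TTTCGCGC, each on either strand. Sequences are WBcel235 (ce11) on the strand of the gene, 5′ to 3′, and end nearest the gene. The lin-9 stretch is the minus strand of chrIII:8904178-8904477, 300 bp centred on the pooled summit. The lin-54 stretch is the plus strand of chrIV:13240652-13240820, the 169 bp of the region outside annotated exons. The efl-1 stretch is the minus strand of chrV:16965676-16965860, the 185 bp of the region upstream of the start.
lin-9: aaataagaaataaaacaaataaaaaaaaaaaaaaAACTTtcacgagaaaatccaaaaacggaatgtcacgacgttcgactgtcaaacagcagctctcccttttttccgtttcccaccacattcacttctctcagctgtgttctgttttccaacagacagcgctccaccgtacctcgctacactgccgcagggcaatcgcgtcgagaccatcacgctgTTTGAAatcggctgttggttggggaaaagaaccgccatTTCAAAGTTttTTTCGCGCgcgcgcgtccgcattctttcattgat
lin-54: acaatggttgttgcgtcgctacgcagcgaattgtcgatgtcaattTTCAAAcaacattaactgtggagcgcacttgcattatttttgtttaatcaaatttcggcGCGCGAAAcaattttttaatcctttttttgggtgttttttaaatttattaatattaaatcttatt
efl-1: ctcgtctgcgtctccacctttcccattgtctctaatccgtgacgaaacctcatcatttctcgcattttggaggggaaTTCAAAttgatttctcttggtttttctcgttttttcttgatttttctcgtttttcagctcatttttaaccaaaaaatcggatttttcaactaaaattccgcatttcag

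The lin-9 stretch held its words mostly near the gene. An E2F word, TTTCGCGC, had its centre 76 bp upstream of the start, 120 bp from the pooled summit and 16 bp from the replicate 2 summit. Beside it, a CHR word overlapped an AAGTT word in the run TTCAAAGTT, 4 bp and 8 bp from the replicate 2 summit. A further CHR word was 70 bp from the pooled summit. The replicate 1 summit was 154 bp from the E2F word. The letters before the annotated start of lin-9 were tttcag, the form of a splice acceptor. In C. elegans many messages are trans-spliced, and an annotated start can then be the acceptor rather than the place where transcription began.

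The lin-54 promoter had the region second in pooled signal, and it was also the promoter of a ribosomal protein gene. LIN-54 is the DNA-binding subunit of MuvB. The gene (WBGene00003037) lies at chrIV:13241044-13243401 on the plus strand, with 3 annotated starts within a few bases. Its region, at chrIV:13240471-13240820, had a signal of 36.8 in the pooled list (rank 142), 19.3 in replicate 1 (rank 528) and 15.0 in replicate 2 (rank 1656). Both replicate values were above the median of their list, and only that of replicate 1 was above rank 1000. The replicate summits were 38 bp apart.

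Summits of the lin-54 region lay 398 bp, 402 bp and 440 bp upstream of lin-54 in the pooled, replicate 1 and replicate 2 lists. They were at the start of rpl-12, which encodes a protein of the large ribosomal subunit and runs the other way, 392 bp from lin-54. The pooled and replicate 1 summits lay 5 bp and 9 bp downstream of an rpl-12 start, and the replicate 2 summit lay 44 bp upstream of another. All 3 were in an rpl-12 exon outside its coding sequence. The region was thus closer to rpl-12 than to lin-54 in each list, and the lists do not assign it to either gene. The printed stretch between them held a CHR word 54 bp from the pooled summit and an E2F word 114 bp from it, with 284 bp from the E2F word to the lin-54 start.

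The efl-1 promoter had the pooled region placed closest to the start of its own gene among the 8. EFL-1 is the E2F protein of worm DREAM. The gene (WBGene00001161) lies at chrV:16958590-16965675 on the minus strand. Its region, at chrV:16965511-16965860, had a signal of 25.8 in the pooled list (rank 1545), 12.9 in replicate 1 (rank 5589) and 17.7 in replicate 2 (rank 547). It was high in replicate 2 and the pooled list, and less so in replicate 1. Its summits lay 11 bp, 11 bp and 25 bp upstream of the start, the replicate summits were 14 bp apart, and no other protein-coding gene had its start window there. The efl-1 stretch held 1 CHR word, 106 bp upstream of the start, and no AAGTT or E2F word, and it ended in tttcag at the start.

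**Figure D3:**
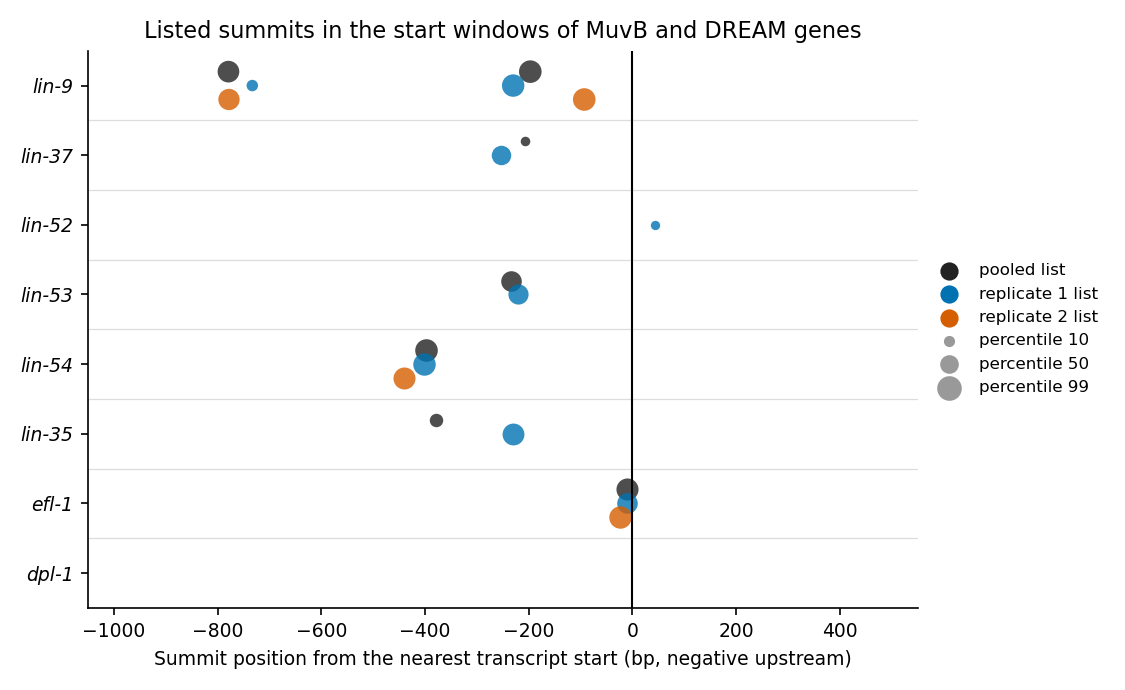
Position of every listed summit in the start window of each gene, in bp from the nearest transcript start, for the pooled (black), replicate 1 (blue) and replicate 2 (orange) lists. Larger points have a higher percentile of signal within their list. All summits but the one of lin-52 are upstream, the 3 lists line up at lin-54 and efl-1, and dpl-1 has none.

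The gene of the histone-binding subunit had a region listed in the pooled list and in 1 replicate. LIN-53, a relative of human RBBP4, is part of MuvB and of other chromatin complexes. The gene (WBGene00003036) lies at chrI:9618196-9619760 on the minus strand, and its region at chrI:9619820-9620169 was intergenic. Signal was 20.5 in the pooled list (rank 5625) and 12.4 in replicate 1 (rank 6575), with no listed region in replicate 2. The pooled summit lay 235 bp upstream of lin-53 and 232 bp upstream of nra-2, so it was midway between the genes. An E2F word and CHR words were within 150 bp of it.

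The pocket protein gene was high in replicate 1 and low in the pooled list. LIN-35 is the only pocket protein of the worm. The gene (WBGene00003020) lies at chrI:5807709-5815637 on the plus strand. Signal was 15.6 in replicate 1 (rank 2138) and 14.4 in the pooled list (rank 20796), and in replicate 2 the nearest summit was outside the start window, 1227 bp upstream (signal 8.84, rank 16689). The pooled summit was 379 bp upstream of lin-35 and 39 bp upstream of vps-51 on the other strand, and the replicate 1 summit was 231 bp and 187 bp upstream of them. Inside the gene, outside the start window, each list had 2 summits. The highest of these had a signal of 21.7 in the pooled list (rank 4134), 16.5 in replicate 1 (rank 1549) and 10.6 in replicate 2 (rank 9139), and in the pooled and replicate 1 lists this was above the start window.

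The remaining MuvB genes and dpl-1 had no region in the start window in replicate 2, and in the pooled list a low one or none. LIN-37 and LIN-52 are small MuvB subunits, and in animals LIN-52 is known to carry the contact with the pocket protein. For lin-37 (WBGene00003022, chrIII:7070890-7072552, minus strand) the signal was 13.1 in the pooled list (rank 26428), near its lowest value of 12.3, and 11.8 in replicate 1 (rank 8322), above that list's median of 9.89. That summit lay in an exon of ZK418.5, outside its coding sequence. ZK418.5 is the next gene upstream on the same strand and ends 60 bp from lin-37. At the start of ZK418.5, 1398 bp upstream of lin-37 and outside the window, a region had a pooled signal of 23.6 (rank 2605), with 10.1 in replicate 1 (rank 13957) and 7.39 in replicate 2 (rank 26237).

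For lin-52 (WBGene00003035, chrIII:9824083-9824750, minus strand) the replicate 1 list had a region of signal 7.86 (rank 26686) with its summit 43 bp downstream of a start, in a coding exon. Neither of the other lists had one. The upstream gene ZK632.9, on the same strand, ends 126 bp away. For dpl-1 (WBGene00001061, chrII:9169910-9172565, plus strand), which encodes the DP partner of EFL-1, the nearest summits outside the window were 2208 bp downstream in the pooled list, 1209 bp downstream in replicate 1 and 2300 bp upstream in replicate 2. Their signals were 13.0, 8.13 and 13.6. The gene itself held 1 summit in each list, none of them in the start window.

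Few summits lay near the edges of the start window. Just inside the window, the farthest summits were those of the shared lin-9 and unc-32 region, at 779 bp. Just outside, the nearest were 596 bp downstream of efl-1 in replicate 2 (signal 7.79), 1135 bp upstream of lin-52 in replicate 1 (10.6), and 1227 bp and 1228 bp upstream of lin-35 in replicate 2 (8.84) and the pooled list (12.7).

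No order of the 8 genes held across the lists. By pooled signal it was lin-9, lin-54, efl-1, lin-53, lin-35 and lin-37. In replicate 1 it was lin-54, lin-9, lin-35, efl-1, lin-53, lin-37 and lin-52, and in replicate 2 lin-9, efl-1 and lin-54. The lists give 1 value per gene and replicate with no error, so neighbours in the order could not be tested. The median percentile, the share of regions in the list with lower signal, was 88.05 over the 6 listed genes in the pooled list and 59.1 over the highest regions of the 9018 listed genes. It was 81.4 over 7 genes in replicate 1 against 57.2, and 98.2 over 3 genes in replicate 2 against 59.05. Each median leaves out the genes with no listed region.

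E2F words, which few promoters hold, occurred at 3 of the 6 genes with a pooled region, and AAGTT, which most promoters hold, at 3 as well. Within 150 bp of the highest pooled summit, an E2F word occurred at lin-9, lin-54 and lin-53. The share was 3.88% of the 10451 pooled regions in a start window of any protein-coding gene, and 3.56% of windows of the same length at all protein-coding starts. A CHR word occurred at 5 of 6, all but lin-35, against 74.3% of those regions and 68.98% of start windows. AAGTT occurred at lin-9, lin-54 and lin-35, against 74.3% and 69.2%. The printed stretch between lin-54 and rpl-12 held no AAGTT, so the words counted for lin-54 lay at or beyond its rpl-12 edge. Within 100 bp the E2F word was left at lin-53 and AAGTT at lin-54, 1 region each, where all pooled regions held them in 2.49% and 61.3% of cases and start windows in 2.28% and 54.1%. The E2F words are rich in G and C, and GC content was 45.2% at lin-9, 42.5% at lin-54, 40.5% at efl-1, 38.9% at lin-53, 33.6% at lin-35 and 30.2% at lin-37, against a median of 33.2%. Its part in the E2F count was not tested. No 31-base word of these 6 regions occurred elsewhere in the genome.

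Most of the annotated starts had the letters of a splice acceptor before them. At 6 of the 8 genes, all but lin-37 and lin-54, the bases before the annotated start ended in cag, against 22.1% of protein-coding genes. At lin-37 the bases were ttctag, which share the final ag of an acceptor and were not counted. At lin-54 they were agttat. At 4 of the 8 genes, lin-9, lin-52, lin-53 and efl-1, the bases were tttcag, against 12.3%. Where such a start is a trans-splice acceptor, the place where transcription begins lies an unknown distance upstream of the point from which distances were counted.

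Of the related genes, pcn-1, mcm-5 and mcm-7, which act in DNA replication, were the only ones among the 1000 highest pooled regions. Among 23 synthetic multivulva genes of classes A and B and their chromatin partners, 10 had a region in the start window in the pooled list (43.5%, against 45.2% of all genes), and 4 had replicate summits within 200 bp (17.4%, against 13.4%). The 1000 highest held 0 of them in any list, against 2.90%, 2.48% and 2.73% of all genes in the pooled, replicate 1 and replicate 2 lists. So 0 of 23 is near the share of all genes. The 8 MuvB and DREAM genes were not in this list. The highest pooled signals were those of lin-13, a zinc-finger gene (26.6, rank 1223), and hpl-1, a heterochromatin protein gene (20.3, rank 5879). In replicate 1 they had 11.6 and 9.98, and in replicate 2 14.2 and 8.11. The closest relatives of the 8 genes, looked up after the values were seen, were rba-1, 88 bp downstream of lin-53, and efl-3, with no listed region in any list, and efl-2 (pooled signal 17.7, rank 10452).

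Of 10 genes of the retinoblastoma axis at the G1/S step, 6 had a pooled region (60% against 45.2%), 2 had replicate summits within 200 bp (20% against 13.4%), and 0 were among the 1000 highest pooled regions (2.90% of all genes). The highest pooled signals were those of lin-23, which encodes an F-box protein (27.2, rank 1046), and cdk-2 (22.5, rank 3471). In replicate 1 lin-23 had 12.5 and cdk-2 9.56, and in replicate 2 they had 9.51 and 8.74. In replicate 2 cyd-1, the cyclin D gene, was among the 1000 highest with 17.6 (rank 575), while its pooled signal was 16.4 (rank 14084) and replicate 1 listed none.

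Among 23 cell cycle genes of the kind that DREAM is known to repress in animals, 10 had a pooled region (43.5% against 45.2%), 5 had replicate summits within 200 bp (21.7% against 13.4%), and 3 were among the 1000 highest pooled regions (13% against 2.90%). These 3 encode the replication clamp PCNA (pcn-1) and subunits of the replicative helicase (mcm-5 and mcm-7). The mcm-7 summit, 453 bp upstream, was also in the start windows of figl-1 and hpo-18, and the lists do not assign it. The pcn-1 region was in the consensus, with a signal of 54.6 in the pooled list (rank 29), 25.4 in replicate 1 (rank 75) and 27.7 in replicate 2 (rank 46). For mcm-5 the signal was 29.97 (rank 534), 15.2 and 13.8, and for mcm-7 27.9 (rank 869), 15.3 and 13.8. Thus pcn-1 was above each of the 8 genes in every list, and lin-9 and lin-54 were above mcm-5 and mcm-7 in every list. The lin-54 region is the one at the start of rpl-12, which the lists do not assign to either gene. The mitotic genes of this list differed, and those given here were named after their values were seen. The kinetochore gene mis-12 (pooled signal 23.4, rank 2748) and set-21 (19.6, rank 6807) were in all 3 lists. For cdk-1, cyb-1, bir-1 and hcp-3 the pooled regions had signals of 12.4 to 18.1. The cdk-1, cyb-1, rnr-2 and set-21 summits were also in the start windows of iff-1, orc-5, C03C10.7 and rpl-7A. Listed in replicate 2 alone were icp-1 (15.6, rank 1309), bub-1 (9.94, rank 11613) and mcm-2 (8.84, rank 16693). In replicate 1 alone knl-1 was listed (7.55, rank 28922). No region was listed for air-1, air-2, plk-1, cyb-3, cya-1, rnr-1, cdt-1 and polh-1. Over all protein-coding genes, 32.5% were likewise in none of the lists.

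**Figure D4:**
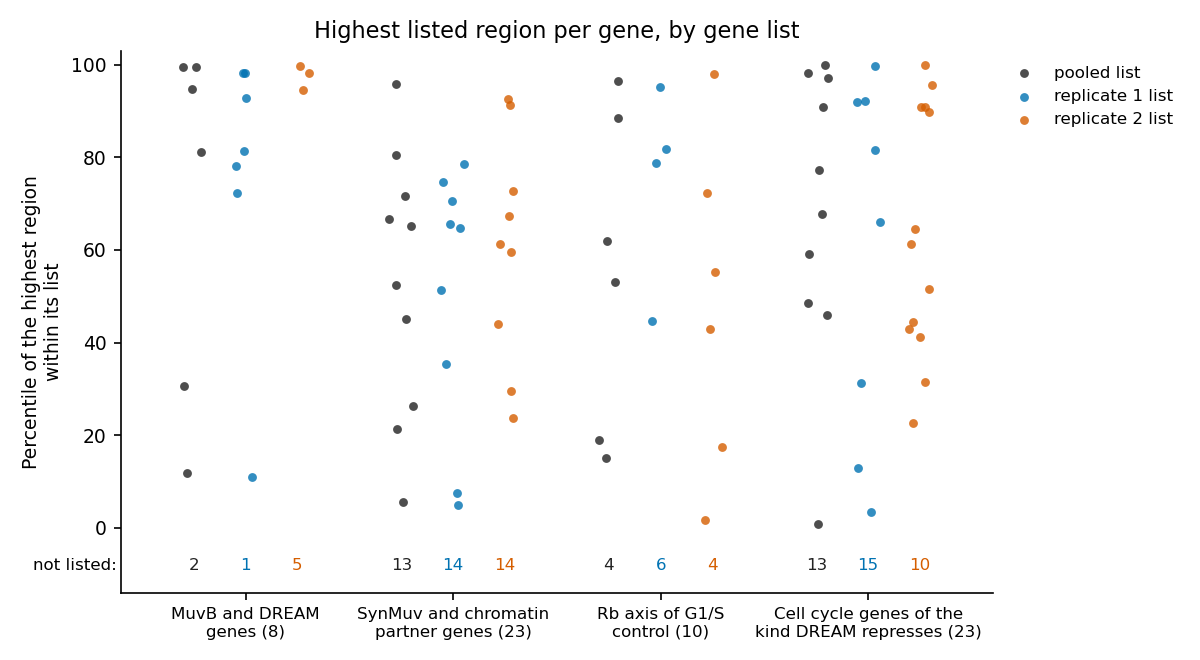
Percentile of the highest region in the start window within its list, 1 point per gene, for the 8 MuvB and DREAM genes and the 3 lists of related genes. Numbers below give the genes with no listed region. The MuvB and DREAM genes have 3 points in replicate 2, all above 90, and the cell cycle genes range from 0.94 to 99.9 in the pooled list.

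The genes whose pattern over the 3 lists was most like that of lin-9, by Euclidean distance of percentiles among 4390 other genes listed in all 3, were wwp-1, rsa-2, Y116A8C.9, arf-6 and W03F8.4, at 0.114 to 0.358 percentile points. For wwp-1, a ubiquitin ligase gene, signal was 36.3, 19.2 and 23.6 in the pooled, replicate 1 and replicate 2 lists. For rsa-2, which encodes a spindle assembly factor, it was 39.8, 19.4 and 20.98. Y116A8C.9 and arf-6 shared 1 region (42.1, 18.8 and 20.9). The lists at the top are crowded in percentile, so a small distance here says only that these genes rank as lin-9 does.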

How the data were processed

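Region lists on ce11 were used. Per the deposited README texts, each replicate, and both together, gave a list against a control alignment, as input for the irreproducible discovery rate procedure, and the consensus was derived from these lists. The sources used here do not name the aligner, the peak caller or the threshold. The signal values are the authors' own. The deposited score in column 9 was not used, since it falls below 0 in the pooled list. Read depth was unknown, so no counting error can be given.

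Lists were joined to the WBcel235 genome and the Ensembl release 115 annotation of the same build with Python 3.11.15, pandas 2.3.3 and NumPy 2.4.6. Mitochondrial regions were left out before ranking. Every rule was applied to all 19973 protein-coding genes, and the code was tested on simulated regions. No p-value was computed. Members and gene lists were chosen with earlier results of these data known. Genes named by rule were the members, genes sharing their regions, the 2 of highest pooled signal and any among the 1000 highest regions in each related list, and 5 genes of like pattern. The closest relatives of the members and the other cell cycle genes were named outside this rule, after their values were seen. Neighbouring genes, and genes sharing regions with related genes, were also named outside it. The ce10 lists were not used.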

Additional observations from a re-analysis of the deposited data

How the results depend on the processing

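A count was called kept if within 1.5 times of the reported one, whichever genes made it up. The median percentile was called kept if within 11.9 points, the SD between the 2 replicate lists. The medians of those lists were also among its alternatives, so they were judged against their own difference. Of 37 alternative values, 33 were kept by these rules. The values kept include all those for summits matched within 100 bp or 350 bp and for genes among the 1000 highest regions. The latter were 2 of 8 in each list, with lin-9 in each. The second gene was lin-54 in the pooled and replicate 1 lists and efl-1 in replicate 2. With matching at 100 bp, lin-9 is held by its distal region alone, since its highest summits were 137 bp apart. No pooled list was rebuilt with a replicate left out. In its place each replicate list was taken alone, which repeats the counts given above. The genes with a region then numbered 3 in replicate 2 and 7 in replicate 1. A window from 2000 bp upstream gave 6 genes in all 3 lists, and 35.6% of all protein-coding genes, against 3 genes and 22.0% with the reported window. With 100 bp either side of the summit, the E2F word and AAGTT each fell to 1 region. No paired analysis was possible because all samples belong to 1 group. Without read counts in the files, no limit from depth can be stated.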

Other observations

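Of all protein-coding genes, 239 had a region above the 90th percentile in each of the 3 lists. Of the MuvB and DREAM genes, lin-9 and lin-54 did, 2 of 8, where the lin-54 region is the one at the start of rpl-12. This count was made after the values were seen.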
